A study of Drosophila melanogaster with 4 samples.

Results

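The ecdysone cascade was followed at the level of 10 genes: the receptor pair EcR and usp, the early genes br, Eip74EF and Eip75B, and the nuclear receptor genes Eip78C, Hr3, Hr39, ftz-f1 and Hr38. They were taken by FlyBase symbol from the 14869 gene IDs counted in each library, and all 10 matched an ID. The gene br was matched through its older ID FBgn0000210, while its exon length was taken by symbol from a later annotation. Its length, and the values that use it, may therefore rest on another gene model than the one counted. S2 is an established Drosophila melanogaster line of embryonic origin, here kept in Schneider medium and taken during exponential growth. There were 4 poly(A) RNA libraries, 1 for each condition: the solvent DMSO, which the labels place at 0 min, and radicicol dissolved in DMSO at 40 µM for 15, 30 and 60 min. Radicicol blocks the ATP site of the chaperone Hsp90, and the labels name the kinetics of the response to this inhibition as the question. No added ecdysone is mentioned in the labels. A change in time in culture cannot be told apart from a change through radicicol, because the solvent was sampled at 0 min only.

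Ecdysone is the steroid hormone that times moulting and metamorphosis in insects. Its active form binds a heterodimer of the nuclear receptors EcR and Usp, and the bound receptor switches on a small group of early transcription factor genes, whose products in turn regulate early-late and late genes. In cell-free work with fly proteins the EcR/Usp heterodimer needed Hsp90 and other chaperones to bind DNA, and several Drosophila cell lines respond to the hormone.

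The gene counts summed to between 19153476 in the DMSO library and 31028233 at 60 min. In the radicicol libraries 17.8 to 21.5% of reads were not aligned, against 44.1% in the DMSO library, and the part of this gap in the results was not tested. A single library stands for each condition, so the spread between cultures is unknown. Intervals are exact 95% counting intervals and cover counting error only, since PCR copies of 1 molecule were not marked. Levels are in CPM, counts divided by a library size that TMM scaled. A gene is called higher or lower when a pair of libraries differs 2-fold or more and the interval excludes no change. In bulk RNA, fewer cells with a transcript and less of it per cell cannot be told apart. The verbs rose and fell are kept for genes whose slope over the 4 libraries passed edgeR's quasi-likelihood test at an adjusted p below 0.05. The haemocyte markers of this line were present: all 10 were measured and their summed level was 8040 CPM in DMSO, 9900 CPM at 15 min, 9790 CPM at 30 min and 13600 CPM at 60 min. Of 10 markers of other tissues 8 had an ID and 2 were measured, elav and Act88F. The other 6 had between 0 and 6 counts in each library. The neuronal gene elav had 28, 135, 123 and 496 counts in the DMSO, 15, 30 and 60 min libraries (log2 fold at 60 min 3.4, 2.86 to 4.01). Its exons are long, 10.7 kb, and 34.2% of them overlap another gene. Once a link between fold and exon length across all genes, described below, was subtracted, its log2 fold was 1.72. Act88F, with exons of 1.6 kb, had 340, 579, 733 and 1021 counts in the same order. Its log2 fold at 60 min was 0.84 (0.67 to 1.03), and 1.2 with that link subtracted. Of the 10 haemocyte markers 2 were higher than in DMSO at 60 min, against 19.7% of all measured genes. Their median log2 fold at 60 min was 0.71, and -0.4 with that link subtracted. The part of these marker shifts in the results was not tested.

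Of the 10 cascade genes 9 were measured, meaning that their counts averaged 20 or more. At 60 min 6 of these 9 were higher than in DMSO (br, Eip74EF, ftz-f1, Eip78C, Hr39 and EcR) and none was lower, while 19.7% of the 7883 measured genes were higher and 12.6% lower. The median log2 fold of the 9 genes was 0.32 at 15 min, 0.56 at 30 min and 1.24 at 60 min, beside 0, 0 and -0.02 over all measured genes. Over the 889 measured genes with exons at least as long as those of Hr39 the medians were 0.39, 0.46 and 1.35. With the link between fold and exon length subtracted, the medians of the 9 genes were 0.06, 0.1 and 0.25. None of the 9 was higher at 15 min, where 1.4% of all measured genes were higher and 1.23% lower. At 30 min Eip74EF alone was higher, against 3.36% of all genes higher and 1.32% lower. The 6 genes higher at 60 min also rose over the 4 libraries. None fell, none of the others had an unadjusted p below 0.05, and DESeq2 gave 6 rising and 0 falling. Without the 60 min library 3 rose (Eip74EF, Hr39 and ftz-f1). Once the link between fold and exon length was subtracted, 1 of the 9 was higher at 60 min (Eip78C) and 1 lower (Eip75B). Of all measured genes 34.1% rose and 33.8% fell, so a passed slope is common in these libraries. All comparisons with DMSO share 1 DMSO library.

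**Figure D1:**
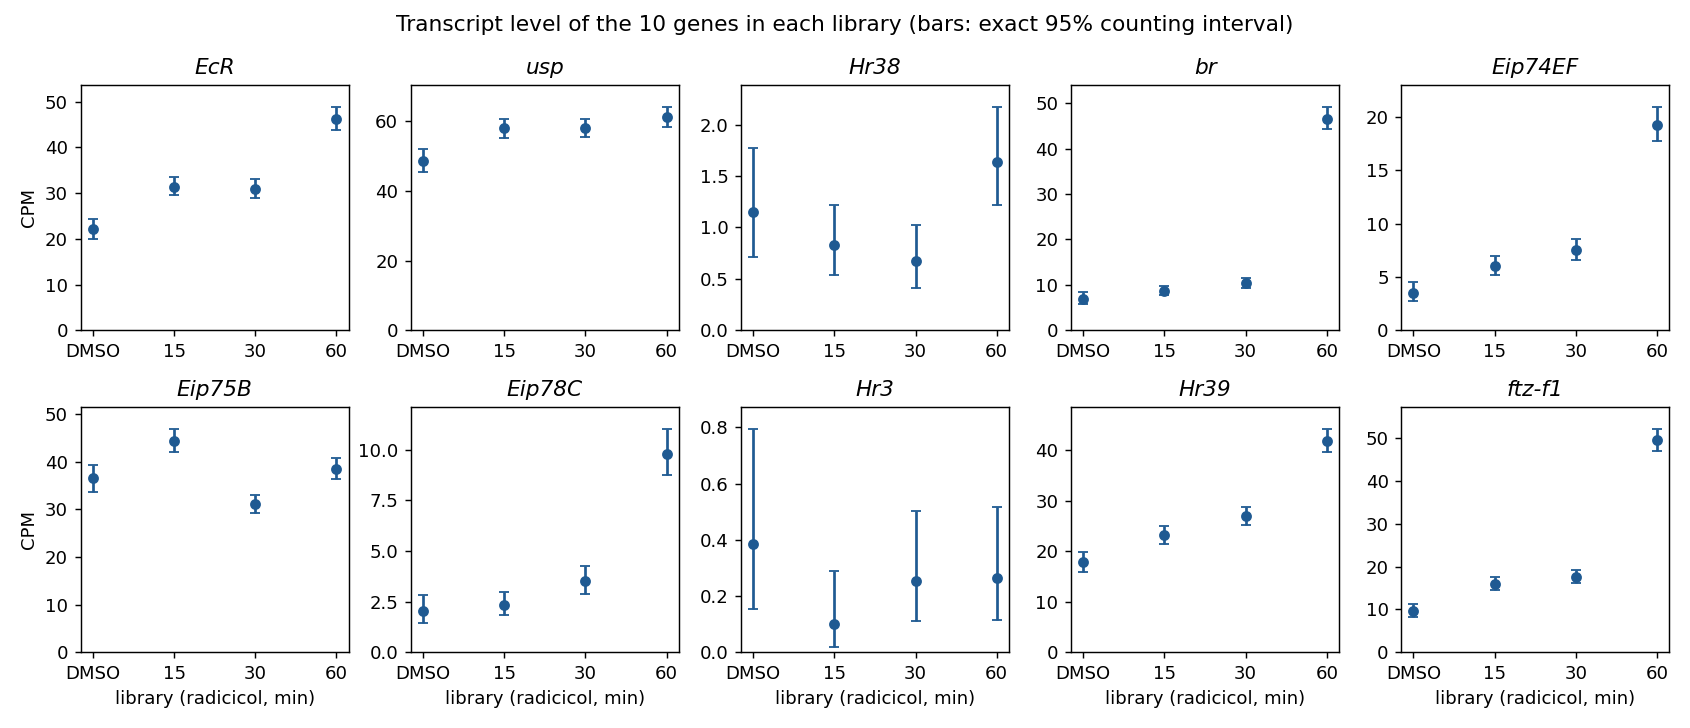
Level of each of the 10 genes in CPM (y axis, from 0, scaled per gene) in the DMSO library and after 15, 30 and 60 min of radicicol (x axis). Points are single libraries and bars are exact 95% counting intervals. br, Eip74EF, Eip78C and ftz-f1 stand far above their other libraries at 60 min, and Eip75B has its highest level, 44.4 CPM, at 15 min.

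The receptor genes come first. EcR (FBgn0000546) encodes the hormone-binding partner of the receptor. It had 22.1 CPM in DMSO, 31.4 CPM at 15 min, 30.9 CPM at 30 min and 46.3 CPM at 60 min. The intervals of the 15 and 30 min libraries overlap, and both lie above the DMSO interval and below the 60 min interval. At 60 min EcR was 2.1-fold higher than in DMSO (log2 1.07, 0.91 to 1.23), and its slope was 0.96 log2 units per 60 min (edgeR adjusted p = 0.00239). With the relation to exon length removed its direction turned, to a log2 fold of -0.56 and a slope of -0.64 (edgeR adjusted p = 0.00989). In every other alternative the slope of EcR was positive, from 0.81 to 1.07. The adjusted p of those positive slopes ran from 1.02e-05 (DESeq2's Wald test) to 0.0853 (edgeR without the 60 min library). Usp, the retinoid X receptor of the fly and the obligatory partner of EcR, is encoded by usp (FBgn0003964). This gene had 48.7 CPM in DMSO, 58.0 CPM at 15 min, 58.0 CPM at 30 min and 61.1 CPM at 60 min. The 3 radicicol values overlap in their intervals and the DMSO value is the lowest. Its log2 fold at 60 min was 0.33 (0.21 to 0.45), short of the 2-fold rule, and its slope of 0.27 did not pass (adjusted p = 0.108).

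Hr38 (FBgn0014859) encodes the fly member of the NR4A family, a receptor that can pair with Usp and that serves as a marker of recent activity in insect neurons. It had 21, 25, 21 and 50 counts in the DMSO, 15, 30 and 60 min libraries, which is 1.15, 0.826, 0.67 and 1.64 CPM. The intervals of the DMSO and 60 min libraries overlap, so a difference between them was not detectable at this depth (log2 0.51, -0.25 to 1.32). Against the 30 min library, which has the lowest value, the 60 min library was 2.45-fold higher (log2 1.3, 0.53 to 2.10). The slope of 0.76 did not pass (adjusted p = 0.246).

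Among the early genes, br and Eip74EF were several-fold higher at 60 min and Eip75B was not. The Broad-Complex gene br encodes BTB-zinc finger transcription factors that specify the pupal stage. It had 6.98 CPM in DMSO, 8.73 CPM at 15 min, 10.3 CPM at 30 min and 46.6 CPM at 60 min. Nearly the whole difference lies in the last library: 91.6% of the gain in CPM between DMSO and 60 min fell after 30 min. At 60 min br was 6.68-fold higher than in DMSO (log2 2.74, 2.48 to 3.01) and 4.52-fold higher than at 30 min (log2 2.18, 2 to 2.36). Its slope was 2.89 per 60 min (adjusted p = 0.000956). Without the 60 min library the slope was 1.11 and did not pass (adjusted p = 0.125, with a range over the alternatives from 4.51e-44 to 0.125). The lowest value of that range came from the fit without the DMSO library. That fit has fewer residual degrees of freedom, so its p cannot be set beside the main value. The step of br from 30 to 60 min was matched or exceeded by 1.03% of all measured genes. With the relation to exon length removed, this step was 0.61 (log2, 0.44 to 0.79), matched or exceeded by 8.79% of the genes with a length. Of the 13 measured genes with exons at least as long as those of br, br among them, 76.9% were higher at 60 than at 30 min. Their median log2 fold at 60 min over DMSO was 2.25. This gene has 16 annotated transcripts, and gene-level counts do not tell its isoforms apart.

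Eip74EF (FBgn0000567), an ETS-domain transcription factor gene, had 64, 181, 236 and 585 counts. These are 3.52 CPM in DMSO, 5.98 CPM at 15 min, 7.53 CPM at 30 min and 19.2 CPM at 60 min. The DMSO, 30 min and 60 min intervals do not overlap, and those of 15 and 30 min do. Eip74EF was 2.14-fold higher than DMSO at 30 min (log2 1.1, 0.69 to 1.52) and 5.47-fold higher at 60 min (log2 2.45, 2.08 to 2.85), with a slope of 2.38 (adjusted p = 0.000462).

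Eip75B (FBgn0000568) encodes a haem-binding nuclear receptor that represses the activity of Hr3. It had 36.5 CPM in DMSO, 44.4 CPM at 15 min, 31.1 CPM at 30 min and 38.5 CPM at 60 min. The highest library is 15 min and the lowest 30 min. The log2 fold over DMSO was 0.28 (0.15 to 0.42) at 15 min, -0.23 (-0.37 to -0.08) at 30 min and 0.08 (-0.06 to 0.22) at 60 min. Between 15 and 30 min the log2 fold was -0.51 (-0.63 to -0.39), which no other measured cascade gene matched, and 98.2% of all measured genes had a value at least as high. No size of 2-fold was reached, and the slope of -0.05 did not pass (adjusted p = 0.853).

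Of the genes that act later in the cascade, ftz-f1 and Eip78C were the ones with the larger differences. Eip78C (FBgn0004865), an early-late gene for a nuclear receptor related to Eip75B, had 37, 71, 110 and 298 counts in the DMSO, 15, 30 and 60 min libraries. In CPM these are 2.03, 2.35, 3.51 and 9.8. DMSO and 15 min overlap, and the 60 min library is far above all others. It was 4.82-fold higher at 60 min than in DMSO (log2 2.27, 1.77 to 2.80) and 2.79-fold higher than at 30 min (log2 1.48, 1.16 to 1.81). Its slope was 2.42 (adjusted p = 0.000848).

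The gene ftz-f1 (FBgn0001078) encodes the nuclear receptor that makes late prepupal tissues competent to respond to the next hormone pulse. It had 9.62 CPM in DMSO, 16.0 CPM at 15 min, 17.6 CPM at 30 min and 49.5 CPM at 60 min. The DMSO interval lies below all others, 15 and 30 min overlap, and 80.1% of the gain fell after 30 min. The 60 min library was 5.15-fold above DMSO (log2 2.36, 2.14 to 2.60) and 2.82-fold above 30 min (log2 1.5, 1.35 to 1.64), with a slope of 2.29 (adjusted p = 0.000478). Of its exon length 29.4% overlaps another annotated gene, so part of its reads may have been set aside as ambiguous or shared.

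Hr39 (FBgn0261239) encodes a receptor of the same subfamily as Ftz-f1 that can bind the same DNA elements. It had 17.8 CPM in DMSO, 23.2 CPM at 15 min, 27.0 CPM at 30 min and 41.9 CPM at 60 min, and no pair of the 4 intervals overlaps. It was 2.36-fold higher at 60 min (log2 1.24, 1.06 to 1.42), with a slope of 1.20 (adjusted p = 0.000557). With the relation to exon length removed the slope was 0.25 and did not pass (adjusted p = 0.0698, with a range over the alternatives from 1.8e-09 to 0.0698). Hr3 (FBgn0000448), the ROR-type receptor that activates ftz-f1 in prepupae, had 7, 3, 8 and 8 counts. It was below the count filter, its intervals overlap in all 4 libraries, and no difference was detectable at this depth. Of the exon length of Hr3 82.7% overlaps another annotated gene, so its low count is not a safe measure of its level.

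Per gene, the share of the gain between DMSO and 60 min that fell after 30 min was 61.9% for Hr39, 63.5% for EcR, 74.5% for Eip74EF, 80.1% for ftz-f1, 81.0% for Eip78C and 91.6% for br. The step from 30 to 60 min covers as much time as that from DMSO to 30 min. A constant slope in log2 also puts a larger share of the CPM gain late when the fold is larger. The share over all genes was not computed, so no timing particular to these genes is shown. The last step does not use a gene's count in the DMSO library, although the library scaling and the count filter did include that library. Between 30 and 60 min 5 of the 9 genes were higher (br, ftz-f1, Eip78C, Eip74EF and Hr38), against 9.81% of all measured genes and 40.8% of the 889 genes with exons at least as long as those of Hr39. With the relation to exon length removed, 0 were higher in this step. Between 15 and 60 min 4 were higher (br, Eip78C, Eip74EF and ftz-f1), against 13% of all, a comparison chosen after the DMSO alignment rate was known. EcR and Hr39 had log2 folds of 0.56 (0.44 to 0.68) and 0.85 (0.72 to 0.99) in that comparison and depend on the DMSO library for their call. With the relation to exon length removed, Eip78C alone was higher between 15 and 60 min (log2 1.26) and Eip75B alone was lower (log2 -1.6).

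Set against each other per kb of exon, the levels covered a wide range. In DMSO usp stood at 16.0 CPM per kb, which 49.5% of measured genes lay below. Then came Hr39 with 3.56, Eip75B with 2.71, EcR with 2.23 and ftz-f1 with 1.12 CPM per kb, each apart from its neighbour in its counting interval. Eip74EF with 0.377, br with 0.346 and Eip78C with 0.346 CPM per kb overlap in their intervals. Hr38 had 0.15 and Hr3 0.0368 CPM per kb. At 60 min usp (20.1) and Hr39 (8.40) still led in CPM per kb, followed by ftz-f1 (5.77), EcR (4.66), Eip75B (2.86), br (2.31), Eip74EF (2.06) and Eip78C (1.67), of which br and Eip74EF overlap. The exon length joins the exons of all annotated transcripts, so for genes with many isoforms the level per kb is set too low.

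The cascade genes share a feature that their choice did not use: they are long. The median exon length of the 9 measured genes was 8.58 kb, beside 2.04 kb over the 7220 measured genes with an exon length. The lengths were 3.04 kb for usp, 4.98 kb for Hr39, 5.88 kb for Eip78C, 7.70 kb for Hr38, 8.58 kb for ftz-f1, 9.33 kb for Eip74EF, 9.93 kb for EcR, 13.5 kb for Eip75B and 20.2 kb for br. In these libraries the fold at 60 min went with exon length across all genes. With the genes cut by exon length into 4 groups of 1805, the median log2 fold at 60 min was -0.82 in the group with the shortest exons, then -0.33 and 0.19, and 1.02 in the group with the longest, where 51.1% of genes were higher. Among the 889 genes with exons at least as long as those of Hr39, 70.1% were higher at 60 min and 40.8% were higher than at 30 min. The count of 6 of 9 lies near that share of long genes rather than near 19.7%. The cut was set at the shortest of the 6 genes called higher, so it depends on the outcome and leaves out usp. Whether the relation to length arose in the cells or in the making of the libraries was not tested.

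**Figure D2:**
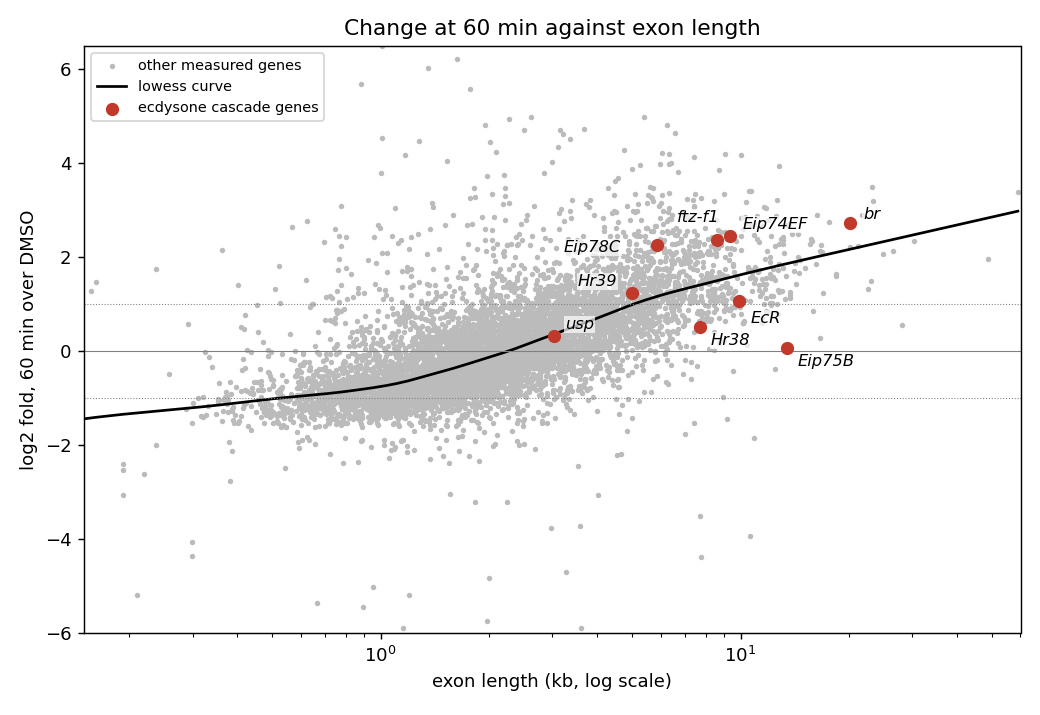
Log2 fold at 60 min over DMSO (y axis) against exon length in kb (x axis, log scale) for each measured gene, with the ecdysone cascade genes in red, a lowess curve in black and dotted lines at 2-fold. 25 genes lie outside the axes. br, Eip74EF, ftz-f1, Eip78C and Hr39 lie above the curve, usp on it, and EcR, Hr38 and Eip75B below it.

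With the curve subtracted, the genes divided. Eip78C kept a log2 fold of 1.1 at 60 min (0.60 to 1.63) and was the one gene still called higher, against 9.28% of the genes with a length. Eip74EF (0.88, 0.50 to 1.27), ftz-f1 (0.86, 0.64 to 1.1) and br (0.56, 0.30 to 0.84) were above 0 but under 2-fold, and Hr39 had 0.25 (0.07 to 0.43). The curve for br rests on few genes, since 13 measured genes have exons at least as long. EcR had -0.56 (-0.72 to -0.39), so its direction turned, and usp had -0.04 (-0.16 to 0.08). Eip75B had -1.79 (-1.93 to -1.65) and was called lower, against 4.40% of the genes with a length. Of the 43 measured genes with exons at least as long as those of Eip75B, the median log2 fold at 60 min was 2.01 before subtraction, and only 2, Eip75B among them, were at or below its value of 0.08. In the slope test with the length relation removed br, Eip74EF, Eip78C and ftz-f1 rose (edgeR adjusted p from 0.00102 to 0.0107) and EcR and Eip75B fell (adjusted p = 0.00989 and 0.000147). Over all 9 alternatives the adjusted p ranged from 1.02e-05 to 0.0853 for EcR and from 0.000147 to 0.943 for Eip75B. For EcR both ends of that range belong to positive slopes, and the length-removed slope was the only negative one. For Eip75B the length-removed slope was the only one to pass.

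**Figure D3:**
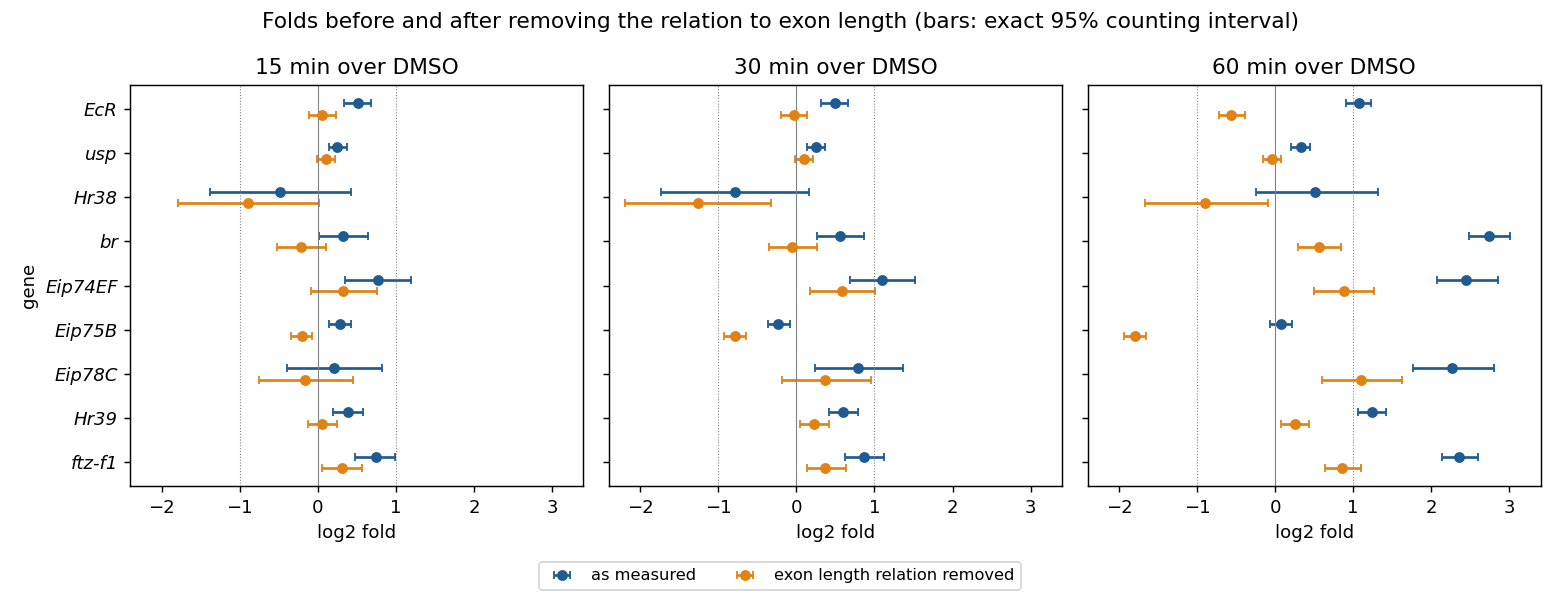
Log2 fold over DMSO (x axis) of the 9 measured genes at 15, 30 and 60 min, as measured (blue) and with the relation to exon length removed (orange). Bars are exact 95% counting intervals and dotted lines mark 2-fold. At 60 min the adjusted value of Eip78C is 1.1, that of Eip75B -1.79, and those of the other genes lie between -0.90 and 0.88.

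Genes that respond to the hormone in other settings were read from a list of 24, of which 22 had an ID and 12 were measured. At 60 min 7 of the 12 were higher and 0 lower, with a median log2 fold of 1.16, beside 19.7% higher, 12.6% lower and a median of -0.02 over all measured genes. Like the lists below, this one was drawn up with earlier results of these data known, so the contrast is a description only. The same 7 rose and none fell, where 34.1% of all measured genes rose and 33.8% fell. They were vri, a bZIP repressor gene, with a log2 fold of 4.28 (3.99 to 4.59), ImpL2, a secreted antagonist of insulin signalling, with 3.10 (3.01 to 3.19), the transporter gene E23 with 1.82 (0.89 to 2.89) and the kinase gene Eip63E with 1.60 (1.45 to 1.76). The zinc finger gene crol had 1.35 (1.29 to 1.41), the cell death gene rpr 1.23 (0.85 to 1.63) and the caspase gene Dronc 1.09 (0.96 to 1.22). The other measured genes of the list stayed under 2-fold. Eip71CD had -0.28 (-0.42 to -0.13) and Eip55E -0.19 (-0.27 to -0.11), both with intervals below 0. Ldh had 0.05 (-0.04 to 0.15), ImpE3 0.09 (-0.49 to 0.68) and hid 0.21 (-0.32 to 0.76). Of the exon length of ImpL2 61.9% overlaps another gene. Like br, vri gained most after 30 min, with 96, 296, 692 and 3126 counts in the DMSO, 15, 30 and 60 min libraries. With the length relation removed vri (3.36), ImpL2 (2.89), rpr (2.03) and Dronc (1.21) were still higher, 4 of 12 against 9.28% of the genes with a length. The classical salivary gland and late genes Sgs4, Eig71Ed and Eig71Ee had 0 counts in all libraries, and Sgs3 and Fbp1 had at most 2.

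Among cofactors of the receptors 10 of 12 listed genes had an ID and were measured, of which 4 were higher at 60 min and 0 lower, with a median log2 fold of 0.43, beside 19.7% higher and 12.6% lower over all measured genes. The coactivator of EcR encoded by tai had 204 CPM at 60 min and 29.5 CPM in DMSO (log2 2.79, 2.66 to 2.92). The gene bon, whose TIF1-type product binds Ftz-f1 and other receptors, had 2.67 (2.43 to 2.92), the histone methyltransferase gene trr 1.53 (1.38 to 1.68) and the remodelling factor gene E(bx) 1.46 (1.38 to 1.54). In the slope test 5 rose and 1, ash2, fell (slope -0.49, adjusted p = 0.00795), where 34.1% of all measured genes rose and 33.8% fell. With the length relation removed bon (1.51) and tai (1.02) were higher and Utx was lower (-1.04), against 9.28% higher and 4.40% lower of the genes with a length. None of the 5 measured nuclear receptor genes outside the cascade was called higher or lower at 60 min, against the same 19.7% and 12.6%. Hnf4 had a log2 fold of 0.83 (0.70 to 0.97), Hr51 0.26 (-0.55 to 1.11), Hr96 0.06 (-0.09 to 0.20), Hr78 -0.57 (-0.72 to -0.43) and ERR -0.80 (-0.95 to -0.66). Hnf4 rose (adjusted p = 0.00722) and Hr78 and ERR fell (adjusted p = 0.00432 and 0.00128), and 52.2% of the exon length of ERR overlaps another gene. The median exon length of these 5 was 2.42 kb.

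The genes for making and clearing the hormone were close to silent. Of 11 listed, 9 had an ID and 1 was measured: Oatp74D, the importer of ecdysone, with 89.6 CPM at 60 min against 57.3 CPM in DMSO (log2 0.64, 0.54 to 0.75), which rose over the 4 libraries (slope 0.54, adjusted p = 0.0258). The synthesis genes spo, spok, phm, dib, sad and shd had at most 12 counts in any library. Cyp18a1, whose product inactivates the hormone, had 14, 8, 6 and 6 counts.

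**Figure D4:**
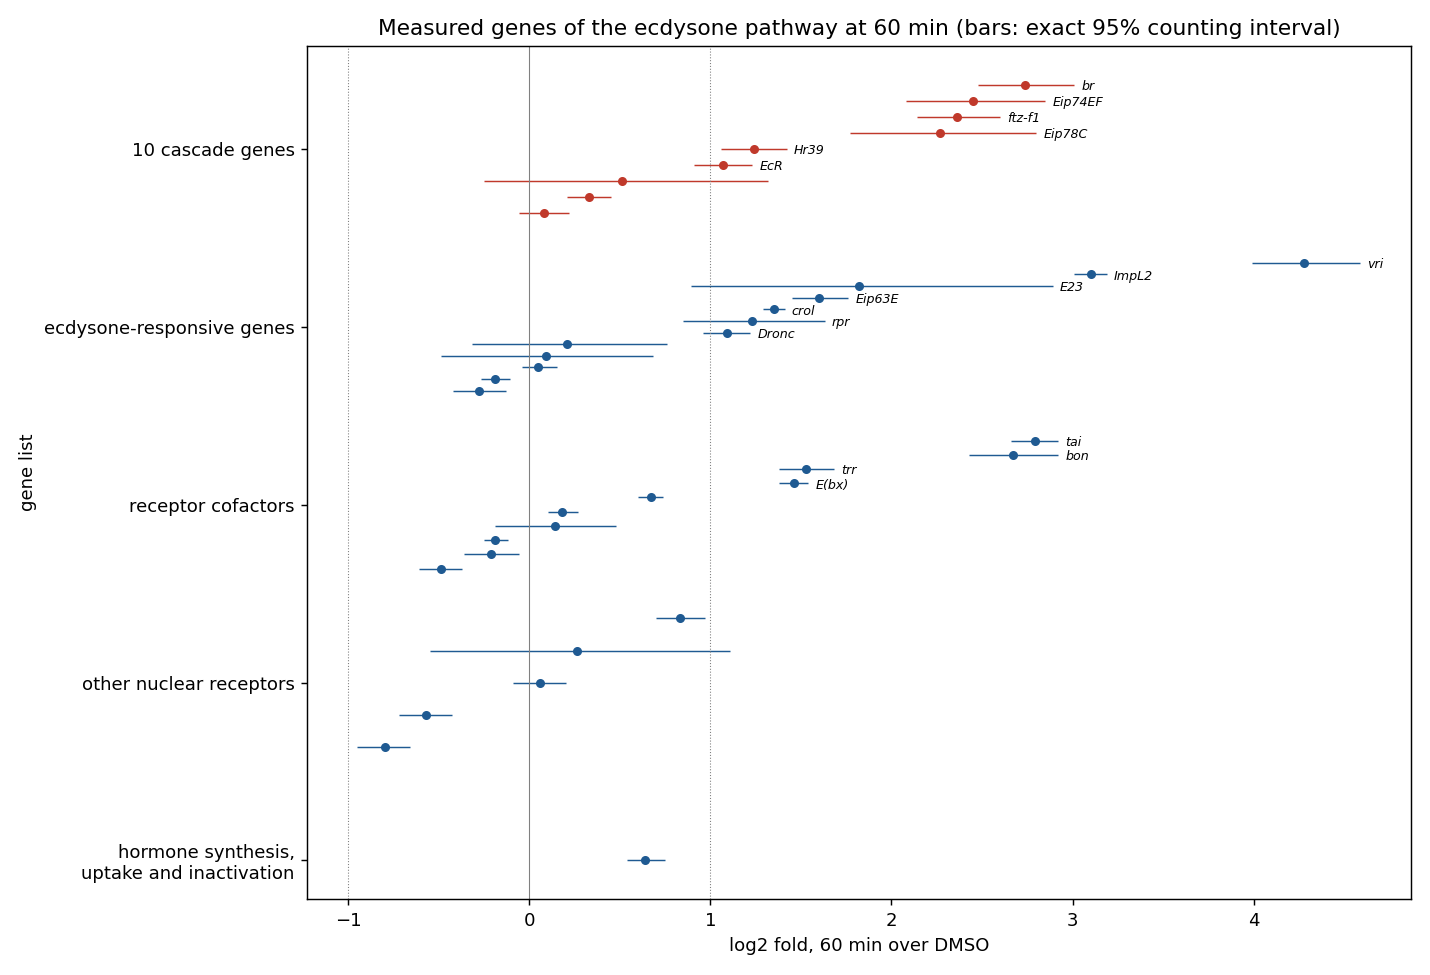
Log2 fold at 60 min over DMSO (x axis) of the measured genes in the 10 cascade genes (red) and 4 further lists of the ecdysone pathway (blue), 1 point per gene with its exact 95% counting interval. Named genes are past the 2-fold rule, and among the other nuclear receptors and in the list of hormone synthesis, uptake and inactivation none is.

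Outside the cascade, the profiles nearest to the median of the 9 genes (0.32, 0.56 and 1.24) were sought among 6868 other genes averaging 100 counts or more, by Euclidean distance over the 3 log2 folds. The nearest with a symbol were rho-4 with 0.35, 0.57 and 1.26 (distance 0.04), iPLA2-VIA with 0.32, 0.61 and 1.26 (distance 0.05) and Drice with 0.28, 0.53 and 1.20 (distance 0.06). The IDs FBgn0028954 (distance 0.05) and FBgn0020240 (distance 0.06) were as near. These distances rest on 3 folds that share 1 DMSO library and are a description only. For comparison, Hsp83, the gene of Hsp90 itself, had a log2 fold of 2.38 (2.37 to 2.39) at 60 min.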

How the data were processed

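The authors deposited raw read counts per FlyBase gene ID, 1 table per library, without normalisation. Per the submitters' processing notes Bowtie and HTSeq were used with build dm3, with versions, annotation release and strand setting not given in the sources used here. The 5 entries that name no gene (31.4 to 53.1% of reads) were left out of library sizes. Symbols came from a gene name table, and exon lengths from Ensembl release 115, a later build, so no coordinates are printed. TMM library sizes used genes averaging 20 counts or more (edgeR 4.0.16, R 4.3.3). Folds between single libraries carry Clopper-Pearson counting intervals. The slope over minutes was tested across 7883 genes by edgeR's quasi-likelihood test with 2 residual degrees of freedom and Benjamini-Hochberg adjustment. Its error is the scatter of single libraries around a straight line, and the spread between cultures does not enter. The test was checked on simulated data. Those data had straight-line changes in few genes and no relation to exon length. The check therefore does not cover the adjusted p in libraries with many changed genes and such a relation. DESeq2 1.42.0, other library sizes, filters, time as an order, a lowess length correction (span 0.3, exon length known for 91.6% of measured genes) and left-out libraries were alternatives. All 10 cascade genes were named, listed genes past the 2-fold rule (at most 8 per list) and the 5 nearest profiles. Genes named below that rule were chosen after their values were seen. The cascade genes and lists were chosen with earlier results of these data known.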

Additional observations from a re-analysis of the deposited data

Results flagged for a closer look

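Reads outside annotated exons are a signal that the counts per gene do not use. They made up 16.4% of aligned reads in the 60 min library, against 14.7% in the DMSO library, with 14.8% at both 15 and 30 min. They cannot be assigned to the cascade genes from these files.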

How the results depend on the processing

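Removing the relation to exon length was the alternative that moved most counts. Of the cascade genes it left 0 higher and 1 lower (Hr38, log2 -1.26) at 30 min, 1 higher and 1 lower at 60 min, 0 higher at 60 than at 30 min and 2 falling over the 4 libraries, and it left 4 hormone-responsive genes and 2 cofactors higher at 60 min. It turned the direction of the slopes of EcR (-0.64), usp (-0.07) and Hr38 (-0.59). It also turned the sign of the log2 fold at 60 min of EcR (-0.56), usp (-0.04), Eip75B (-1.79) and Hr38 (-0.90), at 30 min of EcR (-0.03) and br (-0.05), and at 15 min of br (-0.21), Eip75B (-0.20) and Eip78C (-0.16). The cause was not tested. Leaving out each library in turn gave 3 to 7 rising genes. The 3 came without the 60 min library, when EcR, br and Eip78C no longer passed (adjusted p = 0.0853, 0.125 and 0.0891, of ranges that start at 1.02e-05, 4.51e-44 and 6.26e-16). The lowest values of br and Eip78C came without the DMSO library, from fits with fewer residual degrees of freedom than the main one. The 7 came without the DMSO library, when Hr38 passed as well. Over the libraries left out in turn the slope of Eip75B lay between -0.47 and 0.09 (without the 15 min library) and that of Hr38 between -1.56 and 1.58. DESeq2 size factors, total counts, the filters, time as an order and DESeq2's test kept all counts of cascade genes within 1.5 times. Total counts moved the median of all genes by 0.16 at 15 min and 0.05 at 60 min (log2). No paired analysis was possible because each condition has 1 library. Depth limits Hr3 and Hr38.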

Other observations

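Genes below the count filter were not compared, and a few of them had their highest count in the DMSO library, which has the fewest gene counts. Chosen after their values were seen, knrl, a gene of the knirps family of nuclear receptors, had 16, 1, 1 and 0 counts in the DMSO, 15, 30 and 60 min libraries. ImpE1, a gene induced by ecdysone in imaginal discs, had 23, 3, 0 and 4 counts. The synthesis gene spo had 12, 10, 4 and 2 counts. These are counts of single libraries with no replicate.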
